A study of Mus musculus with 4 samples.

Results

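The proteasome transcripts described here were those of every non-control probe whose gene name was Psm followed by a letter from a to g and a number, leaving out the immunoproteasome genes Psmb8 and Psmb9. The rule found 74 probes of 46 genes among the 41174 probes and 27398 gene names of the array. It used names alone and no measured value, though the members were chosen with earlier results of these data known. The members fell into the 2 rings of the core, with 13 probes of 8 alpha genes (Psma) and 11 probes of 9 beta genes (Psmb), and the regulatory cap, with 10 probes of 6 ATPase genes (Psmc) and 24 probes of 14 non-ATPase genes (Psmd). A further 8 probes of 4 genes encode activators (Psme), 3 probes of 1 gene an inhibitor (Psmf1), and 5 probes of 4 genes assembly chaperones (Psmg). Psmc3ip, whose name begins alike but which encodes a recombination protein, was not taken (2 probes), and Psmb8 and Psmb9 had 3 probes.

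The proteasome is the protease that degrades most short-lived and ubiquitin-tagged proteins of a cell. Its core is a barrel of stacked rings: the outer alpha rings gate the entrance and the inner beta rings carry the catalytic sites. The cap recognises ubiquitin chains, removes them and unfolds the substrate with its ATPase ring. In skeletal muscle this pathway takes part in the turnover of contractile proteins and in muscle wasting.

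C2C12 cells are mouse myoblasts of an established line, which stop dividing and fuse into myotubes in medium poor in serum. Follistatin is a secreted protein that binds and neutralises activins and myostatin. In the treated group the cells differentiated for 6 days with 200 ng/ml recombinant human follistatin added each 24 h, and the untreated group differentiated for the same 6 days without it. Both groups came from the same line, and the labels give the horse serum of the medium as 2% in one field and 10% in another. Each of the 4 biological replicates was 1 two-colour array, with the treated cells' RNA labelled in Cy3 and the untreated cells' in Cy5. The value given throughout is the log2 ratio of treated over untreated processed signal, so that a value below 0 means less signal from treated cells.

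The labels call all 4 arrays dye swaps but give the treated sample in Cy3 on each. All 4 arrays thus had the same dye orientation, so a dye effect of a probe and a treatment effect cannot be told apart. In RNA from whole cultures, fewer cells of a type and less RNA per cell cannot be told apart either. Replicates 1, 2 and 3 shared a slide and replicate 4 lay on another. The ratios of replicates 2 and 3 correlated over all tested probes with r = 0.817, and the other pairs of replicates gave 0.038 to 0.318. No probe had an identical ratio on any 2 arrays, though this does not show that replicates 2 and 3 were independent. Of the myotube markers, 10 of 10 genes were well above background on every array, and 14 of their probes had a median log2 ratio of -0.22. At an unadjusted p under 0.05, 0 of the 14 were higher and 2 lower, against 9.93% and 10.8% of all tested probes. The summed signal of the myotube markers ranged from 1201040 to 1795360 in the treated channel and from 1821380 to 2263900 in the untreated channel. The part of either marker list in the results below was not tested. The undifferentiated myoblast markers, with 5 of 5 genes well above background on every array, had a median of -0.17 over 6 probes, with 0 higher and 2 lower, both of Id1. Their summed signal ranged from 10936 to 14385 in the treated channel and from 14333 to 16956 in the untreated one. Detected to the level required for testing were 0 of 3 endothelial markers, 1 of 3 leukocyte markers (Cd68), 1 of 4 adipocyte markers (Pparg) and 2 of 3 epithelial markers (Cdh1 and Krt5).

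Each probe is a 60-base oligonucleotide, and 25 of the 74 proteasome probes span an exon junction, covering 153 to 20420 bases of genome by the positions in the scanner files (build mm9). The sequences of the 3 catalytic subunits of the constitutive core are shown first, since their values are set side by side below. They lie at chr14:55233161-55233220 on the minus strand (Psmb5), chr11:70341014-70341073 on the plus strand (Psmb6) and chr2:38468966-38489385 on the minus strand (Psmb7), and the last of these spans 20420 bases.
Psmb5: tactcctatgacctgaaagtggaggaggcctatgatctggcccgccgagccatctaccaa
Psmb6: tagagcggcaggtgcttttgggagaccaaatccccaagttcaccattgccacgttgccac
Psmb7: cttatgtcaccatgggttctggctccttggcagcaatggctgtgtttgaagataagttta

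Next are the probes of the core subunits Psmb1 (chr17:15630098-15631393, minus strand) and Psmb3 (chr11:97572424-97572483, plus strand), and both probes of the activator Psme2 (chr14:56206335-56206394 and chr14:56206927-56207124, minus strand). They are shown because most of their ratios lay below 0. No letter is capitalised in these sequences, since no single stretch was singled out.
Psmb1: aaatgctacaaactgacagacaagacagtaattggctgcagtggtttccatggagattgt
Psmb3: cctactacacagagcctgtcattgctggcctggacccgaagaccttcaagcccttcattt
Psme2, first probe: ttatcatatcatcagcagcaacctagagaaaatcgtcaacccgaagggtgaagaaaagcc
Psme2, second probe: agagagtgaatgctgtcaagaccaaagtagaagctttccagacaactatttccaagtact

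Proteasome transcripts were detected in both groups, and their ratios lay mostly close to 0. Of the 74 probes, 67 stood well above background on all 4 arrays in the treated and the untreated channel, and 69 probes of 45 genes entered the test. The thymus subunit Psmb11 and the testis subunit Psma8 were among the faint ones: 1 of the Psmb11 probes was never above background, and the Psma8 probe was above it on 1 array, in the untreated channel. The remaining untested probes were secondary probes of Psma2, Psmd11 and Psmd14.

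No proteasome probe passed the test. In limma's fit over 27016 probes with Benjamini-Hochberg adjustment, 0 of 69 proteasome probes had an adjusted p under 0.05 (smallest 0.110), against 0.0074% of all tested probes. Before adjustment, p was under 0.05 for 11 of 69 proteasome probes (15.9%), against 20.8% of all tested probes. Of these, 4 were higher after follistatin, where the share over all probes was 9.93%, and 7 were lower, where it was 10.8%. By the methods' t-test 0 proteasome probes passed once adjusted (0.0111% of all tested probes), and 10 had a p under 0.05 before that (19.2% of all tested probes). With array weights estimated from the data, 11 proteasome probes passed the adjusted threshold (15.9%), against 24.2% of all tested probes. Those weights were 0.520, 2.32, 1.78 and 0.467 for replicates 1 to 4. With normexp background correction and loess, 12 proteasome probes were lower at an unadjusted p under 0.05 (17.4%), against 10.5% of all tested probes. Without replicate 1, 2 or 3 the 4 higher probes became 1, where the shares over all tested probes were 9.41%, 4.82% and 3.88%. Without replicate 2 or 3 the 7 lower ones became 3, where the shares were 6.91% and 5.64%.

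The median of the mean log2 ratios was -0.052 over the proteasome probes and 0.014 over all tested probes. On single arrays the proteasome median was -0.013, 0.051, -0.12 and -0.080 for replicates 1 to 4. Over all tested probes the array medians were -0.018, 0.019, 0.030 and -0.0079. The proteasome median thus lay above that of its array on replicates 1 and 2 and below it on replicates 3 and 4. Means lay below 0 for 40 of 69 proteasome probes (58.0%), against 48.7% of all tested probes. Below 0 on every array were 14 proteasome probes (20.3%), against 14.5%, and above 0 on every array were 6 (8.70%), against 13.7%.

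Proteasome ratios spread less than those of the array as a whole, a difference that was not tested. Their median size, regardless of sign, was 0.183, against 0.287 over all tested probes and 0.272 over probes detected in both channels on all arrays. The median SD over the 4 arrays was 0.297, against 0.427 for all tested probes and 0.406 for those detected in both channels on all arrays. A mean change over 1.6-fold, the minimum that the submitters set, was seen in 5 proteasome probes (7.25%). The share was 15.8% of all tested probes and 13.4% of those detected in both channels on all arrays. The 5 proteasome probes were 2 higher ones, where the share over all tested probes was 6.49%, and 3 lower ones, where it was 9.34%. The sets compared were not matched for probe brightness or for the kind of target. RefSeq targets made up 61 of the 69 proteasome probes and 20507 of the 27016 tested probes.

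**Figure D1:**
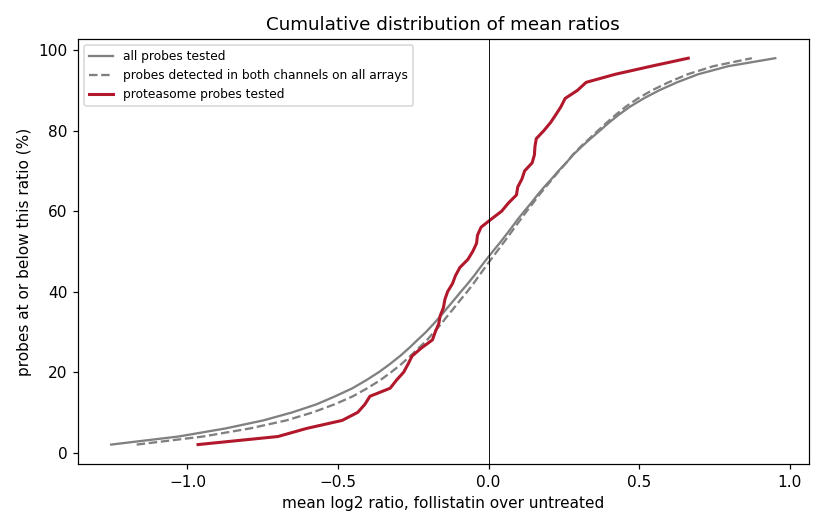
Cumulative distribution of the mean log2 ratio (follistatin over untreated, mean of 4 arrays) in percent of probes, for the proteasome probes tested (red), all probes tested (grey) and probes detected in both channels on all arrays (dashed). The red curve is the steeper one, with a median of -0.052, against 0.014 for all probes tested.

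**Figure D2:**
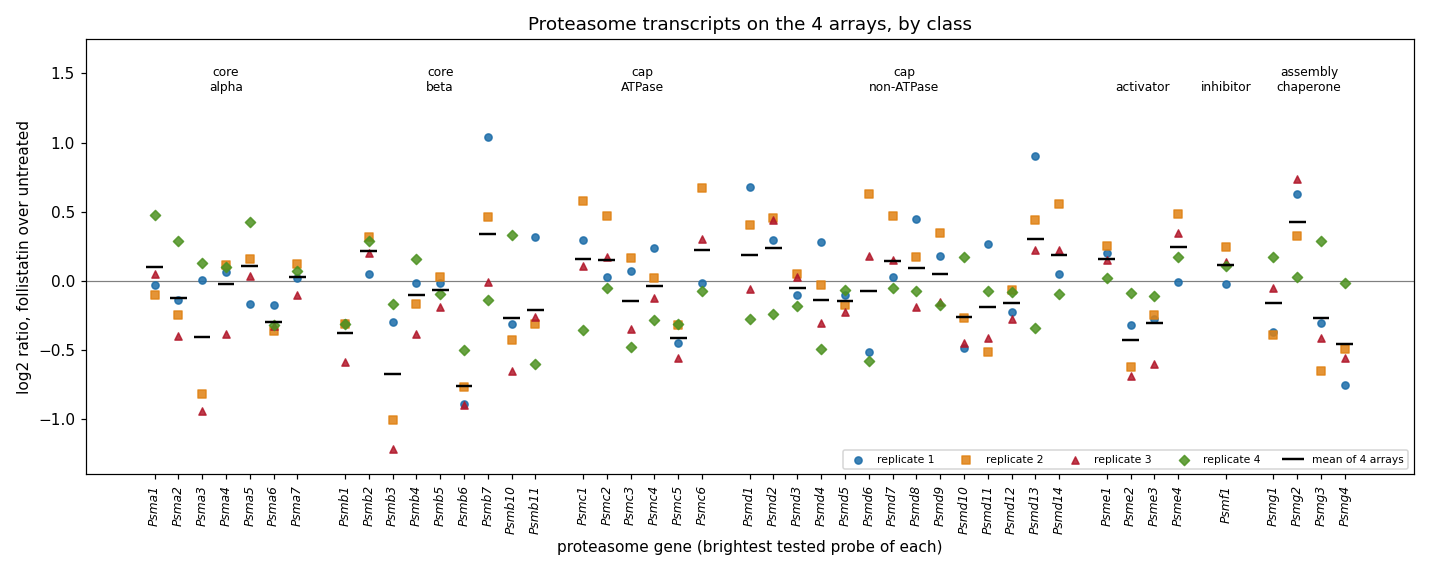
Log2 ratio of follistatin over untreated for the brightest tested probe of each of 45 proteasome genes, by class, with 1 point an array and the mean of 4 arrays as a bar. Psmb6 is the lowest mean, with all 4 arrays between -0.90 and -0.50, and most other genes have points on both sides of 0.

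Among the 3 catalytic subunits of the constitutive core, Psmb6 alone lay below 0 on all 4 arrays. Psmb6, the subunit with caspase-like activity, had treated signals of 43465, 35591, 32489 and 43158 on replicates 1 to 4, and untreated signals of 80563, 60749, 60625 and 60965. Its log2 ratios were -0.89, -0.77, -0.90 and -0.50. Every treated signal was below every untreated one. The share of all probes with such a separation was not counted, and 14.5% of all tested probes lay below 0 on every array. The mean of Psmb6 was -0.76 with an SE of 0.171, and the adjusted p of limma was 0.111, so it did not pass. Over the alternative settings its mean ranged from -0.85 to -0.72 and the adjusted p from 0.0207, with array weights, to 0.455.

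Psmb5 encodes the subunit with chymotrypsin-like activity, the main target of proteasome inhibitor drugs. Its log2 ratios were -0.014, 0.026, -0.19 and -0.093 on replicates 1 to 4. Its treated signals, 18041 to 22895, overlapped its untreated signals, 20524 to 22926. The mean was -0.067 with a 95% interval from -0.45 to 0.32 (limma adjusted p = 0.833).

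Psmb7, the subunit with trypsin-like activity, was the least even of the group. Its log2 ratios were 1.04, 0.46, -0.0081 and -0.14 on replicates 1 to 4. Replicates 1 and 2 lay above 0 and replicates 3 and 4 below it, and its treated signals of 8305 to 10882 overlapped untreated ones of 5301 to 10413. The mean was 0.34 with an SE of 0.239 (limma adjusted p = 0.443), and it was 0.11 without replicate 1. The differences between Psmb5, Psmb6 and Psmb7 were not tested.

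**Figure D3:**
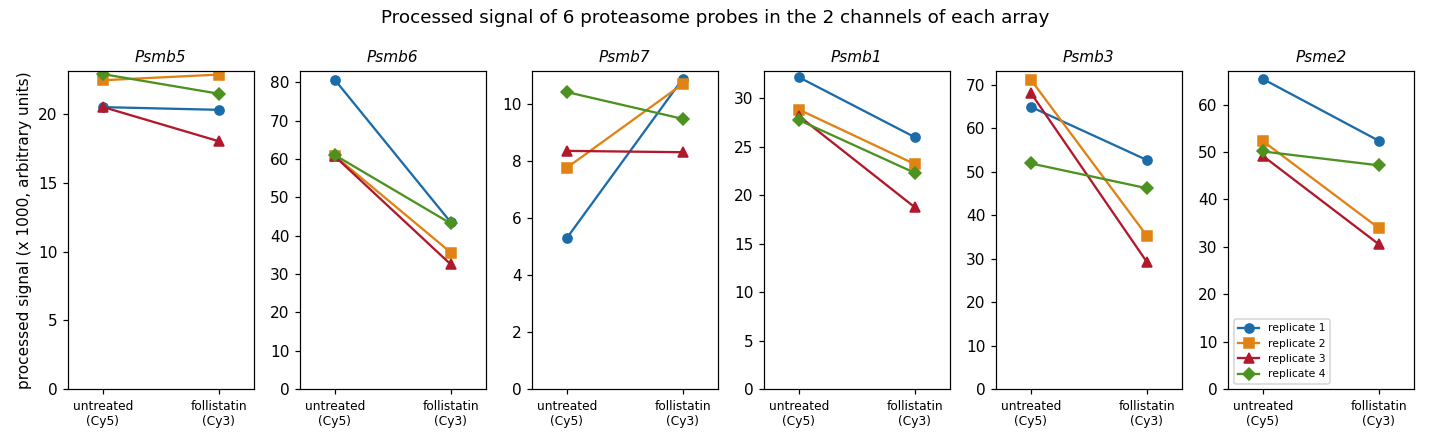
Processed signal (arbitrary units) in the untreated (Cy5) and follistatin (Cy3) channels, 1 line an array, for 6 proteasome probes, each panel with its own axis from 0. For Psmb6 and Psmb1 every treated signal is below every untreated one, whereas for Psmb5 and Psmb7 the channels overlap. The share of all probes with such a separation was not counted.

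The other beta subunits are structural parts of the inner ring, apart from Psmb10, which replaces Psmb7 in the immunoproteasome, and Psmb11. Over the 10 tested beta probes the median was -0.24, with -0.015, -0.31, -0.49 and -0.15 on replicates 1 to 4. Of these probes, 8 had means below 0, against 48.7% of all tested probes. At an unadjusted p under 0.05, 2 were lower and 0 higher, where the shares over all tested probes were 10.8% and 9.93%. Psmb11, above background on 1 array in the treated channel and on 3 in the untreated one, is among the 8. Without it 7 of 9 means were below 0 and the median was -0.27. Over all alternative settings the median of the beta probes tested stayed between -0.33 and -0.17, though some settings tested fewer or more of them.

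Psmb1, a structural subunit, had log2 ratios of -0.31, -0.31, -0.59 and -0.32 on replicates 1 to 4. Its treated signals were 18767 to 26005 and its untreated ones 27770 to 32191. The mean was -0.38 with an SE of 0.166 (limma adjusted p = 0.255). Psmb3, another structural subunit, gave -0.30, -1.01, -1.22 and -0.17 with its brighter probe and 0.19, -0.92, -1.04 and -0.26 with the other. Replicates 2 and 3 were the low ones with both probes, and replicate 1 changed sign between them. The means were -0.67 with an SE of 0.236 (limma adjusted p = 0.188) and -0.51 with an SE of 0.251 (adjusted p = 0.296). Psmb2, above 0 on every array, had a mean of 0.21, and Psmb4 and Psmb10 had means of -0.10 and -0.27 with both signs among the arrays.

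Among the 11 tested probes of the alpha ring, the median was -0.12, with -0.051, -0.056, -0.33 and 0.10 on replicates 1 to 4. Higher at an unadjusted p under 0.05 were 0 of them and lower 1, against 9.93% and 10.8% of all tested probes. That probe was 1 of 3 for Psma3. It is 1 of 2 designed on Ensembl transcripts and gave -0.80, -1.38, -2.05 and -0.45 on replicates 1 to 4. Every array was thus below 0, with a mean of -1.17 and an SE of 0.285 (limma adjusted p = 0.121).

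The RefSeq probe of Psma3 gave 0.0053, -0.82, -0.94 and 0.13 on replicates 1 to 4, with a mean of -0.41 and an SE of 0.244 (limma adjusted p = 0.372). It was close to 0 on replicates 1 and 4, where the lower Ensembl probe was not. The RefSeq probe had signals of 8199 to 16022 over both channels, against 324 to 1348 for the lower Ensembl probe. The other Ensembl probe gave -0.97, 0.32, -0.10 and 0.034, on both sides of 0, with a mean of -0.18 (limma adjusted p = 0.699). The lower Ensembl probe (chr12:72079870-72079929, plus strand) lies within the stretch that the junction-spanning RefSeq probe (chr12:72079794-72084356, plus strand) skips. The sequences of these probes are shown for that reason.
Psma3, RefSeq probe: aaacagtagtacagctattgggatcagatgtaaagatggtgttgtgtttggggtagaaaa
Psma3, lower Ensembl probe: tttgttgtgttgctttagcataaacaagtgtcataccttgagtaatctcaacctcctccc

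Psma6 was the alpha gene with the most even ratios, -0.18, -0.36, -0.33 and -0.32 on replicates 1 to 4. All arrays were below 0, with a mean of -0.30 and an SE of 0.161 (limma adjusted p = 0.334). The highest alpha ratio came from the Ensembl probe of Psma7, with 0.32, -0.056, 0.64 and 0.26 and a mean of 0.29. The RefSeq probe of Psma7 had a mean of 0.025. The Ensembl probe of Psma7 was faint, with signals of 205 to 362 over both channels, against 45444 to 61441 for the RefSeq probe. Psma1, Psma2, Psma4 and Psma5 had means between -0.15 and 0.11, each with both signs among the arrays.

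The cap ATPases form the ring that unfolds substrates and feeds them into the core. Their 10 probes had a median of -0.037, with 0.0053, 0.29, -0.055 and -0.33 on replicates 1 to 4. Higher at an unadjusted p under 0.05 were 0 and lower 2, against 9.93% and 10.8% of all tested probes. Psmc5, with its brighter probe, gave -0.45, -0.32, -0.56 and -0.32. All arrays were below 0, with a mean of -0.41 and an SE of 0.164 (limma adjusted p = 0.227). The other Psmc5 probe gave -0.12, 0.43, -0.010 and -0.73, with a mean of -0.11.

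Psmc2 showed opposite means with its probes. Its Ensembl probe gave -0.087, -0.65, -0.86 and -0.86, all below 0, with a mean of -0.61 and an SE of 0.201 (limma adjusted p = 0.172). Its RefSeq probe gave 0.024, 0.47, 0.17 and -0.052, with a mean of 0.15. The Ensembl probe was faint, with signals of 50 to 161 over both channels, against 37353 to 53741 for the RefSeq probe. Psmc6 had the highest mean of the ATPases, 0.22, from ratios of -0.014, 0.67, 0.31 and -0.071. The probes of Psmc4 had means of -0.038 and -0.036, and Psmc1 and Psmc3 had means of 0.16 and -0.15.

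The non-ATPase subunits comprise the scaffold and ubiquitin receptors of the cap, its lid and the chaperones of its base. Their 22 tested probes had a median of 0.022, with 0.15, 0.35, -0.023 and -0.077 on replicates 1 to 4. Higher at an unadjusted p under 0.05 were 3 of them and lower 1, against 9.93% and 10.8% of all tested probes. The lower one was a probe of the lid subunit Psmd7, designed on a RIKEN cDNA, with ratios of -0.56, -1.20, -1.73 and -0.82. Every array was below 0, with a mean of -1.08, an SE of 0.233 and the smallest adjusted p of any proteasome probe, 0.110 by limma. The RefSeq probes of Psmd7 had means of 0.15 and -0.0041, each with both signs among the arrays.

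Psmd2, a scaffold of the base that binds shuttle factors, gave 1.00, 1.14, 1.16 and -0.41 with the higher of its probes. Replicates 1 to 3, which shared a slide, were high and replicate 4 was below 0. The mean was 0.72 with an SE of 0.301 (limma adjusted p = 0.240), and it was 1.10 without replicate 4 (adjusted p = 0.0637). The other probe of Psmd2 had a mean of 0.24, with replicate 4 again the lowest at -0.24.

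Psmd4, a ubiquitin receptor, gave 0.26, 0.35, 1.53 and 0.38 with its Ensembl probe. All arrays were above 0 and replicate 3 was far above the others, with a mean of 0.63 and an SE of 0.257 (limma adjusted p = 0.233). The mean was 0.33 without replicate 3, and the RefSeq probe of Psmd4 had a mean of -0.14. The Ensembl probe was faint, with signals of 73 to 358 over both channels, against 16568 to 26300 for the RefSeq probe. Psmd9, an assembly chaperone of the base, gave 0.62, 0.74, 0.60 and 0.058 with 1 probe, all above 0, with a mean of 0.50 (SE 0.189, limma adjusted p = 0.209). Its other probe had a mean of 0.048. The deubiquitinase Psmd14 had means of 0.15 and 0.18 with its tested probes, the scaffold Psmd1 0.18 and the lid subunit Psmd13 0.31, each with both signs among the arrays. Psmd5 and 1 probe of the lid subunit Psmd12 were below 0 on every array, with means of -0.14 and -0.16.

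The activators Psme1 and Psme2 form a joint ring that opens the core, and their ratios lay on opposite sides of 0. Psme2 gave -0.32, -0.62, -0.69 and -0.087 with its first probe and -0.25, -0.36, -0.49 and -0.18 with its second. All of these values were below 0, and replicate 4 was the closest to 0 with both probes. The means were -0.43 with an SE of 0.185 (limma adjusted p = 0.251) and -0.32 with an SE of 0.166 (adjusted p = 0.317). Psme1 gave 0.20, 0.25, 0.15 and 0.019, all above 0, with a mean of 0.15 (limma adjusted p = 0.606). The difference between Psme1 and Psme2 was not tested.

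Psme3, which forms the nuclear activator ring, gave -0.28, -0.25, -0.60 and -0.11, all below 0, with a mean of -0.31 (SE 0.174, limma adjusted p = 0.345). The brightest probe of Psme4, another nuclear activator, gave -0.013, 0.48, 0.34 and 0.17, with a mean of 0.25 (limma adjusted p = 0.446). It was above 0 on all arrays but that of replicate 1, and the other RefSeq probes of Psme4 had means of 0.12 and -0.17. The faint probe of Psme4 on a RIKEN cDNA gave 1.34, 0.95, -0.49 and -0.78, and its mean of 0.26 became -0.11 without replicate 1. Its arrays fell on both sides of 0. Over the 8 activator probes the median was -0.026, and 0 of them had an unadjusted p under 0.05, against 20.8% of all tested probes.

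Psmf1 encodes the inhibitor of the core. Its first probe gave 1.22, 0.56, 0.65 and 0.30, its second -1.07, 0.53, 0.53 and -0.46, and its last -0.021, 0.24, 0.14 and 0.11. The first was above 0 on every array, and the second was opposite to it on replicates 1 and 4. Their means were 0.68 (SE 0.205, limma adjusted p = 0.156), -0.12 (adjusted p = 0.850) and 0.12 (adjusted p = 0.705).

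The assembly chaperones Psmg1 to Psmg4 guide the building of the alpha ring. Psmg4 gave -0.75, -0.49, -0.56 and -0.020, all below 0, with a mean of -0.46 (SE 0.190, limma adjusted p = 0.240). Psmg2 gave 0.62, 0.32, 0.74 and 0.024, all above 0, with a mean of 0.43 (SE 0.192, limma adjusted p = 0.265). With both genes replicate 4 was the closest to 0. The second Psmg2 probe had a mean of 0.061, and Psmg1 and Psmg3 had means of -0.16 and -0.27.

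The probes of a gene did not always give like means; differences between probes were not tested. Of 18 genes with 2 or more tested probes, 5 had means on both sides of 0, namely Psmd7, Psmf1, Psmd4, Psmc2 and Psme4. The gap between the highest and lowest mean exceeded 0.5 in 5 genes, Psmd7 (1.22), Psma3 (0.99), Psmf1 (0.80), Psmd4 (0.77) and Psmc2 (0.77), and its median was 0.334. The closest were Psmc4 (0.0016), Psmd14 (0.031) and Psme2 (0.11). A further 27 genes had 1 tested probe.

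**Figure D4:**
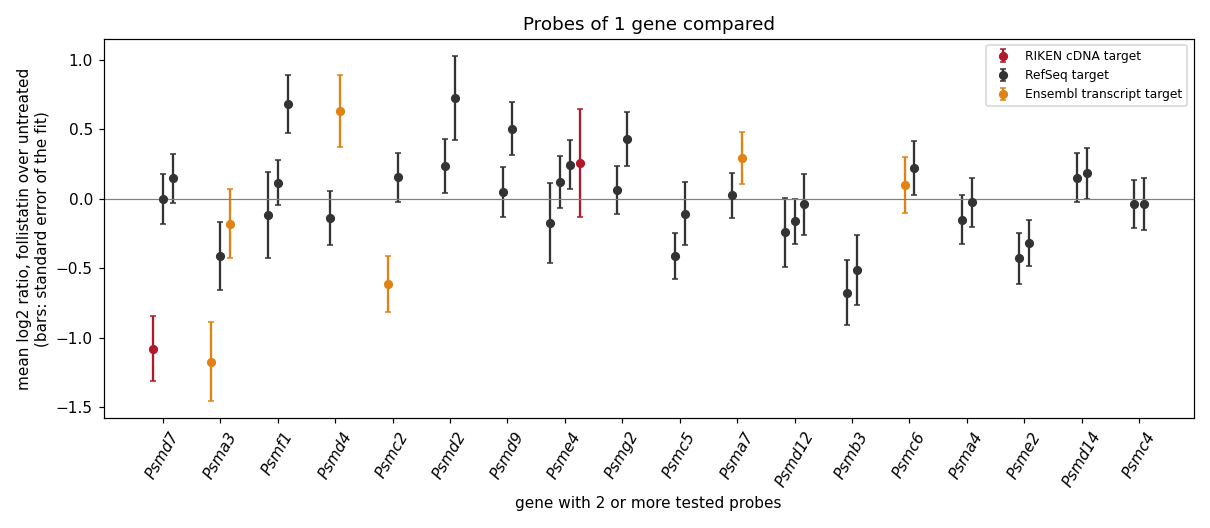
Mean log2 ratio (follistatin over untreated, n = 4) of each tested probe of the 18 proteasome genes with 2 or more, with the standard error of the fit, coloured by the kind of target the probe was designed on. Genes run from the largest gap (Psmd7, 1.22) to the smallest (Psmc4, 0.0016), and of the 5 gaps over 0.5, those of Psmd7, Psma3, Psmd4 and Psmc2 involve a probe on a RIKEN cDNA or an Ensembl transcript, while all Psmf1 probes are on RefSeq.

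The kind of target was examined after these values were seen, and is given as a description. Over all tested probes, the median log2 ratio was 0.068 for 20507 RefSeq probes, -0.13 for 1578 Ensembl probes and -0.50 for 2917 RIKEN cDNA probes. Lower at an unadjusted p under 0.05 were 5.75% of the RefSeq probes, 20.8% of the Ensembl probes and 39.0% of the RIKEN probes. Their median GC contents were 43.3%, 40% and 35%. Among the proteasome probes, 61 RefSeq probes held 4 lower and 3 higher ones (6.56% and 4.92%), and the 8 other probes held 3 lower and 1 higher (37.5% and 12.5%). The medians of the proteasome probes were -0.052 for RefSeq targets and -0.041 for the others. In genes with both kinds, the other probes had the lower mean in 1458 of 2092 genes (69.7%) over the array and in 4 of 7 proteasome genes (57.1%). What part the kind of target or the base composition has in the ratios of Psma3, Psmc2 and Psmd7 was not tested.

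With the brightest tested probe of each gene alone, the median over 45 genes was -0.067. In limma's fit over 1 probe per gene, 0 of the 45 were higher at an unadjusted p under 0.05, against 9.18% of all features, and 6 were lower (13.3%), against 11.4%. In the fit over all probes 4 of these probes were lower. Below 0 on every array were 10 genes (22.2%), against 15.9%, and above it 3 (6.67%), against 13.2%.

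The arrays did not rank the proteasome probes alike. Over the 69 tested probes the ratios of replicates 2 and 3 had r = 0.819, and 17 probes had opposite signs on them. Replicates 1 and 4 had r = -0.0016 with 35 probes of opposite sign, and replicates 2 and 4 had r = -0.023 with 35. Replicate 1 gave r = 0.463 with replicate 2 and 0.417 with replicate 3, and replicates 3 and 4 gave 0.245. These are correlations across probes of the same genes and pairs of RNA, given as a description.

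**Figure D5:**
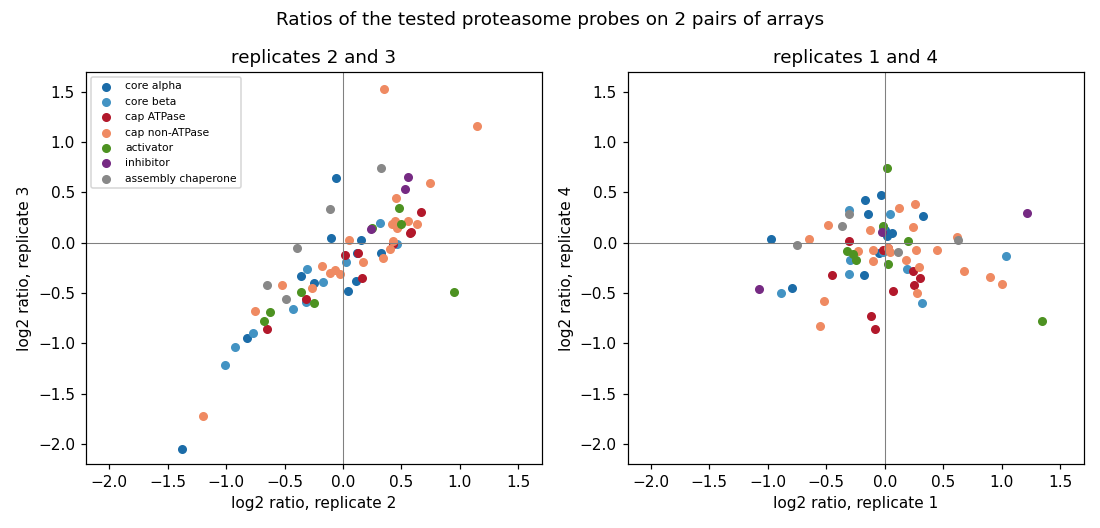
Log2 ratio (follistatin over untreated) of the 69 tested proteasome probes on replicates 2 and 3 (left) and on replicates 1 and 4 (right), 1 point a probe, coloured by class. The left points lie along a rising line (r = 0.819) and the right ones show none (r = -0.0016).

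By class, the medians of the core and the cap were -0.15 over 21 probes and -0.020 over 32. For the core they were -0.029, -0.17, -0.38 and 0.034 on replicates 1 to 4, and for the cap 0.060, 0.35, -0.037 and -0.13. The core lay below the cap on replicates 1, 2 and 3 and above it on replicate 4. The difference between the classes was not tested.

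Among genes that work with the proteasome, 0 probes passed limma's adjusted threshold in each of the lists below, against 0.0074% of all tested probes. The counts of these lists at an unadjusted p under 0.05 stand beside 9.93% higher and 10.8% lower over all tested probes. Among partners of the proteasome, such as ubiquitin receptors and deubiquitinases, 21 probes of 10 genes had a median of 0.011. At an unadjusted p under 0.05, 0 of them were higher and 2 lower. The lower ones were 1 probe of Txnl1 (mean -0.45, the other -0.12), a thioredoxin-like protein of the cap, and a RIKEN probe of Zfand5 (-1.55, its RefSeq probes -0.28 to 0.044). The deubiquitinase Usp14 had means of 0.29 to 0.48. For the 7 probes of 4 ubiquitin genes the median was -0.071, with 0 higher and 1 lower, Rps27a (mean -0.48). Of the left-out immunoproteasome subunits, Psmb8 had means of 0.013 and 0.11 and Psmb9 0.25.

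For ubiquitin-activating enzymes and shuttle factors, 20 probes of 8 genes had a median of 0.047, with 2 higher and 3 lower at an unadjusted p under 0.05. The 5 probes of Uba6 had means from -1.36, with an Ensembl probe, to 0.56, with a RefSeq probe. The 3 probes of Rad23b had means from -0.95, with an Ensembl probe, to 0.45, with a RefSeq probe. The list around the unfoldase Vcp had 17 probes of 8 genes, a median of 0.11, and 4 higher and 2 lower. Among the higher ones were the RefSeq probes of Faf2, with means of 0.64 and 0.79, while its RIKEN probe had a mean of 0.11 with both signs among the arrays. Nsfl1c, a cofactor of Vcp, had 0.73 (limma adjusted p = 0.120).

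Transcription factors of proteasome genes and their activators had 15 probes of 9 genes, a median of -0.038, and 2 higher and 2 lower at an unadjusted p under 0.05. Nfe2l1, which drives proteasome genes when the proteasome is inhibited, gave -0.044, -0.10, 0.24 and -0.25, on both sides of 0. Nfe2l2, the oxidative stress factor, had means of 0.75 and 0.49 with RefSeq probes and -0.64 with an Ensembl probe (limma adjusted p = 0.136, 0.231 and 0.136). Among genes of antigen processing, B2m, the light chain of class I molecules, gave 0.49, 0.59, 0.81 and 1.06, all above 0, with 1 RefSeq probe (mean 0.74, limma adjusted p = 0.121). Its other probes had means of -0.047 and -0.61.

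Promoter sequences were set beside the members by symbol, with 38 of 46 genes matched in RefSeq windows of assembly GRCm38.p6, from 250 bases before to 50 after the start. On either strand, the core of the antioxidant response element, TGACNNNGC, was found for 6 of 38 proteasome genes (15.8%), against 14.0% of all genes with a window. These were Psmb5, Psmb6, Psmc6, Psmd12, Psmd9 and Psme4. Psmb6 holds TGACGGAGC at -9 from the start and Psmb5 TGACGTCGC at -47. CCAAT was found for 13 genes (34.2%), against 41.1%, and GGGCGG for 22 (57.9%), against 38.2%. The motifs were searched separately, and matches of different motifs may overlap.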

How the data were processed

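The proteasome members and the gene lists were chosen with earlier results of these data known. The authors read spot intensity with Feature Extraction (Agilent). The submitters' processing notes name version 10.7.3.1, and the header of replicate 4 gives 10.10.1.1. The deposited intensity values used here are processed signals, from which the software had removed background and dye bias array by array, per the file headers. The deposited log10 ratio of Cy5 over Cy3 was read only for direction. The table of log2 values that the authors deposited equals the log2 ratio of the processed signals used here (r = 1, slope 1), with column medians of -0.16, 0.17, 0.13 and 0.11. Detection and other spot marks were taken as deposited.

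Of 45018 spots, 43379 were not controls. Spots with a non-uniformity or population mark were dropped, 0 were saturated, and repeated spots were averaged. Tested were probes well above background on 3 or more of 4 arrays in one and the same channel. The ratio against 0 was tested in limma 3.58.1 (R 4.3.3) with Benjamini-Hochberg adjustment over all tested probes, and the fit was tested on simulated data. The number of arrays limits the precision. Every tested proteasome probe had a value on all 4 arrays. Named probes were the catalytic subunits, the smallest p and the highest and lowest ratio of each class, and up to 2 more of 1 sign on all arrays; outside the members, genes of smallest p in each list. Genes beyond that rule (such as Psmb2, Usp14, Psmb8 and Psme1) were added for their role after their values were seen. All 46 symbols are current in RefSeq.

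The 15 alternatives were centring of arrays, normexp (offset 50) with loess, the deposited table, 2 filters, marked spots kept, 1 probe per gene, replicates 2 and 3 as 1, slide as a block, array weights, the methods' unpaired t-test, and each replicate left out.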

Additional observations from a re-analysis of the deposited data

Results flagged for a closer look

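On 4 of the 69 tested proteasome probes (5.80%), 1 array stood apart from the other 3 by Dixon's criterion at 95%, which chance alone passes in about 1 of 20 groups. Replicate 3 was that array on 3 of them and replicate 4 on 1. Replicate 3 of Psma4 had a log2 ratio of -0.38, against 0.065 to 0.11 on the others. Replicate 3 of Psmb1 had -0.59, against -0.32 to -0.31. For the Ensembl probe of Psmd4, replicate 3 had 1.53, against 0.26 to 0.38. Replicate 4 of Psmd2, on the other slide, had -0.41 against 1.00 to 1.16.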

How the results depend on the processing

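Of 333 values of named probes under the alternatives, 321 kept their direction and their side of the threshold, 3 changed sign, and 9 passed the adjusted threshold, all with array weights (lowest adjusted p = 0.0197). Psmf1's second probe became 0.28 with array weights and ranged from -0.33 to 0.20 with a replicate left out, and Psme4's RIKEN probe from -0.11 to 0.60, both changing sign without replicate 1. Over all tested probes the 2 calls, Olfr1299 and Ces3b, both lower, became 0 with normexp and loess, with the stricter filter, with replicates 2 and 3 as 1, and without any 1 replicate (0 to 0), and 6534 with array weights. Proteasome calls became 11 with array weights and were 0 under the other settings. The next counts are of proteasome probes at an unadjusted p under 0.05, with the share over all tested probes in brackets. The 4 higher probes (9.93%) became 0 with 1 probe per gene (9.18%), 1 with replicates 2 and 3 as 1 (4.69%) and 1 with the slide as a block (7.09%). They became 8 with array weights (22.1%), and 1 to 4 with a replicate left out (3.88% to 14.2%). The 7 lower probes (10.8%) became 12 with normexp and loess (10.5%) and 3 with replicates 2 and 3 as 1 (6.69%). They became 17 with array weights (20.9%), and 3 to 7 with a replicate left out (5.64% to 14.1%). Of the 11 probes at an unadjusted p under 0.05, 4 remained so with replicates 2 and 3 as 1 and 8 without replicate 4, that is, within slide 1. The proteasome median ranged from -0.084 to 0.0088, the latter with array weights. The cause of these changes was not tested. Ratios of Psmb11 and of the RIKEN probe of Psme4 rest on signals near background. The Ensembl probes of Psma7, Psmc2 and Psmd4 were also faint, though well above background on every array.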
